A study of Mus musculus with 8 samples.

Results

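The IL-6 family genes examined here were 10 members taken by gene symbol, the cytokine genes *Il6*, *Lif*, *Il11* and *Clcf1*, the receptor genes *Il6st*, *Lifr*, *Il11ra1* and *Osmr*, the transcription factor gene *Stat3* and its feedback inhibitor *Socs3*. All 10 were present among the 18605 genes of the expression table, and all 10 passed the filter on low counts, which left 13470 genes for testing. They were measured by RNA-seq in 4 groups of 2 libraries from C3H10T1/2, a line of mesenchymal stem cells from mouse embryo. NC and KD-Nap1l2 were uninduced cells (day 0), the former controls and the latter infected with lentivirus carrying an shRNA against *Nap1l2*. That gene encodes a histone chaperone of the nucleosome assembly protein family. NC-7d and KD-Nap1l2-7d were the corresponding cells after 7 days of osteogenic induction in high-glucose DMEM with serum, penicillin, streptomycin, dexamethasone, ascorbic acid and β-glycerol phosphate. The study's results call the induced RNA-seq control a non-target control, whereas its methods describe normal cells. Whether NC and NC-7d carried a lentiviral vector is therefore not settled here. Both induced groups received the glucocorticoid dexamethasone. Which shRNA sequence was used for the libraries was not given in the sources used here. The comparisons asked how these genes differed between shRNA and control cells before and after induction, and how day 7 differed from day 0 in either cell population. No uninduced cells were sampled at day 7. The osteogenic medium and 7 days of further culture therefore cannot be told apart, and changes on induction below cover both.

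Most cytokines of the IL-6 family signal through gp130, the product of *Il6st*. IL-6 and IL-11 first bind a receptor of their own and then recruit gp130, whereas leukemia inhibitory factor (LIF) pairs gp130 with LIFR and oncostatin M pairs it with OSMR. Janus kinases bound to gp130 then phosphorylate STAT3, which enters the nucleus and activates target genes, among them *Socs3*, whose protein binds gp130 and shuts the signal down. In bone these cytokines act on cells of the osteoblast lineage, and IL-6 is also a well-known product of senescent cells.

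The libraries held between 17420237 and 19427284 estimated counts. The targeted gene gave no check of the labels. *Nap1l2* had normalized counts of 2.96 and 2.80 in NC, 1.96 and 7.29 in KD-Nap1l2, 16.1 and 4.79 in NC-7d, and 7.02 and 13.6 in KD-Nap1l2-7d, and neither shRNA comparison called it (adjusted p = 0.812 and 1.0 by edgeR). The study reports knockdown in this cell line by western blot and quantitative PCR, without saying that the cells of these libraries were the ones measured. KD-Nap1l2 is therefore used below as the name on the libraries. The 10 mesenchymal markers summed to between 4236 and 8672 FPKM, against 9.25 to 16.7 for the 7 macrophage and blood cell markers present in the table, 0.34 to 1.56 for the 4 endothelial markers and 0.44 to 2.13 for the 4 epithelial markers. Some libraries stood apart from their partner. *Fos* had 93.1 normalized counts in NC-7d replicate 1 and 2436 in replicate 2, and *Ier3* had 490 and 4987 in KD-Nap1l2 replicates 1 and 2. In bulk libraries, a change in the share of cells that make an mRNA and a change in its level per cell cannot be told apart.

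Per unit of length, the receptors and *Stat3* were more abundant than the 4 cytokine genes, and far more so than *Il6*, *Lif* and *Il11*. Over all 8 libraries *Il6st* averaged 98.0 FPKM (range 69.3 to 131), *Il11ra1* 83.2 FPKM (51.9 to 146), *Lifr* 43.1 FPKM (21.1 to 68.5), *Stat3* 38.7 FPKM (27.1 to 45.3), *Osmr* 32.6 FPKM (17.1 to 52.8) and *Socs3* 21.8 FPKM (19.3 to 27.3). *Clcf1* was the most abundant of the 4 cytokine genes at 11.3 FPKM (8.97 to 15.0), and *Il6*, *Lif* and *Il11* followed at 2.21 FPKM (0.72 to 3.83), 1.88 FPKM (0.89 to 3.28) and 0.706 FPKM (0.30 to 1.04). In this order the ranges of *Socs3* and *Clcf1*, and of *Clcf1* and *Il6*, did not overlap, whereas every other pair of neighbours overlapped.

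**Figure D1:**
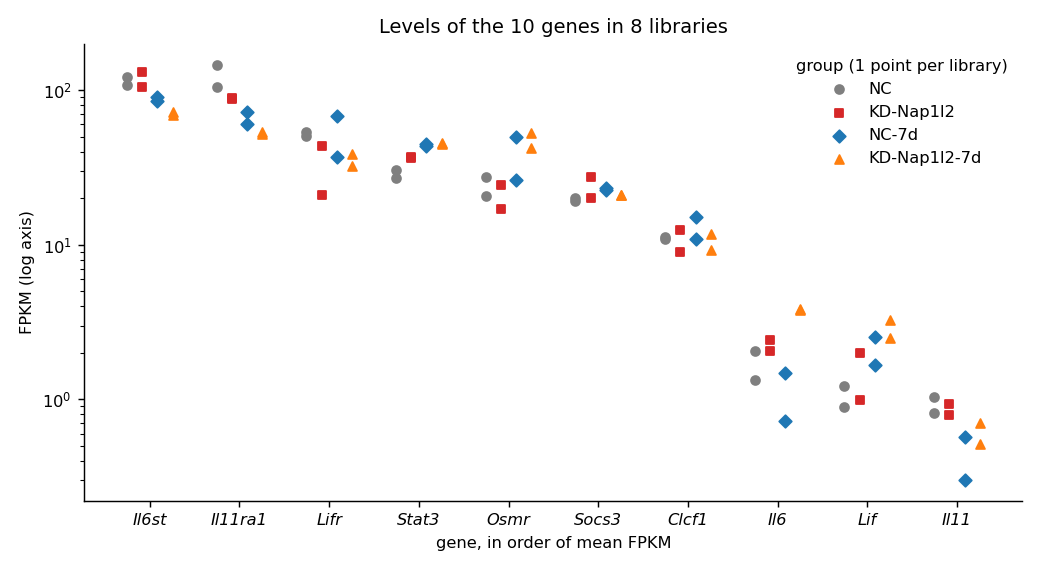
Level of each of the 10 genes in FPKM on a log axis, 1 point per library, coloured by group and sorted by mean level. *Il6st* and *Il11ra1* lie at the top with means of 98.0 and 83.2 FPKM, and *Il6*, *Lif* and *Il11* lie below 4 FPKM in every library.

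*Il6* encodes IL-6 and lies at chr5:30013114-30019975 in GRCm38.p6 (gene 16193). It was counted at 43 and 29 in NC, 48 and 42 in KD-Nap1l2, 29 and 15 in NC-7d, and 78 and 75 in KD-Nap1l2-7d. The exact 95% Poisson interval, which covers counting error only, was 19.4 to 41.7 for the 29 counts and 8.40 to 24.7 for the 15 counts in NC-7d, and 61.7 to 97.4 and 59.0 to 94.0 for the 78 and 75 counts in KD-Nap1l2-7d. By count, both induced libraries labelled KD-Nap1l2-7d were above all of the other 6 libraries. The interval for the 48 counts in KD-Nap1l2 replicate 1, 35.4 to 63.6, overlapped the intervals of both KD-Nap1l2-7d libraries.

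As normalized counts, that is, counts scaled to a common effective library size, *Il6* stood at 22.7 ± 11.8 (SD, n = 2) in NC-7d and 78.3 ± 0.0876 (SD, n = 2) in KD-Nap1l2-7d. The log2 fold change between them was 1.79 (SE 0.40), or 3.46-fold, the largest of any of the 10 genes in either shRNA comparison, with an adjusted p of 0.452 by edgeR over all tested genes and 0.0758 by DESeq2. Over all alternatives the adjusted p ran from 0.0758 to 1.0, and leaving out 1 library at a time gave log2 fold changes between 1.33 and 2.43, with the value without NC-7d replicate 1 being the highest. Before induction the same comparison gave 0.39 (SE 0.39, adjusted p = 0.716), where the groups were 34.7 ± 10.8 and 45.3 ± 2.31 normalized counts. The shRNA difference at day 7 minus that at day 0 was 1.40 (SE 0.56, adjusted p = 0.681). On induction *Il6* moved by -0.62 (SE 0.41, adjusted p = 0.402) in the NC cells and by 0.79 (SE 0.38, adjusted p = 0.199) in the KD-Nap1l2 cells, and neither passed the test.

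The study measured *Il6* by quantitative PCR with the primer pair below, shown because it fixes which stretch of the mRNA that assay reads. It reports that assay in its senescence experiments, and its discussion describes IL-6 as diminished by NAP1L2 depletion there. That setting differs from the induced libraries here, so the values are not set side by side. The forward primer crosses the junction of exons 1 and 2 of the 5 exons (chr5:30013200-30013386 including the intron), the reverse primer lies in exon 2 (chr5:30013471-30013490), and the product spans 126 bases of the mRNA.
Forward primer: cctctctgcaagagacttccat
Reverse primer, read on the opposite strand: acaggtctgttgggagtggt

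The 250 bases before a RefSeq start site of *Il6*, of *Lif* and of *Socs3* are shown (GRCm38.p6). *Il6* and *Lif* were the cytokine genes with the largest ratios of KD-Nap1l2-7d to NC, and *Socs3* is the feedback gene of the pathway. Positions are counted from the start site of each window. That of *Socs3*, chr11:117969366, lies inside the gene span given below. Windows of 300 bases, from 250 before to 50 after a start, were given for 9 of the 10 genes (12 windows), and none for *Clcf1*. Both strands were searched for the STAT motif TTCNNNGAA, the AP-1 motif TGANTCA, the cyclic AMP response element TGACGTCA, the palindromic glucocorticoid receptor motif and the NF-kB consensus. Capitals mark the matches.
Il6, chr5:30012864-30013113, plus strand: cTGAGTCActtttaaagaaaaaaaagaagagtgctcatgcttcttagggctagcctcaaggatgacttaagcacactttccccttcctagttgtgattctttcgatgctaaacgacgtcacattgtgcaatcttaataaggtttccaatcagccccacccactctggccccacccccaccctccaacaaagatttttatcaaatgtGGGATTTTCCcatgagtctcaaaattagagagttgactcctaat
Lif, chr11:4257318-4257567, plus strand: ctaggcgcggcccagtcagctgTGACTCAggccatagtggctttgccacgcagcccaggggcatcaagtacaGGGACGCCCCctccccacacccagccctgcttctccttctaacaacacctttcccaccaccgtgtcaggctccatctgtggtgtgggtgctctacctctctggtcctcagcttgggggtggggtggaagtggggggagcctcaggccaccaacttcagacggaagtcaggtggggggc
Socs3, chr11:117969367-117969616, minus strand: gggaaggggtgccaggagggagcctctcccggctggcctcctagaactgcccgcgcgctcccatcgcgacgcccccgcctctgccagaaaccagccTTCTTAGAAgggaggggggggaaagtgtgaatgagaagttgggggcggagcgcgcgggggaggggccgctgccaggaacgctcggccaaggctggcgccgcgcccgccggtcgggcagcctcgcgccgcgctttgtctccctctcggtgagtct

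*Il6* held an AP-1 match starting at base -249 and an NF-kB match at -44 relative to the start, and *Lif* held an AP-1 match at -228 and an NF-kB match at -178. *Socs3* held a STAT match at -154. Among the other windows, the second window of *Il11* held an AP-1 match at -98 and that of *Osmr* one at base 3 after the start. No window of these genes held the glucocorticoid receptor motif or the cyclic AMP response element. Of all 32851 promoter windows of this length, 7.81% held the AP-1 motif, 8.46% the NF-kB consensus, 8.30% the STAT motif, 1.79% the cyclic AMP response element and 0.00913% the glucocorticoid receptor motif. These matches describe letters in a window and say nothing of binding in these cells.

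*Lif* (gene 16878, chr11:4257568-4272514) encodes LIF, the ligand of the gp130 and LIFR pair. Its normalized counts were 69.0 and 89.7 in NC, 73.4 and 169 in KD-Nap1l2, 130 and 186 in NC-7d, and 247 and 190 in KD-Nap1l2-7d, so all 4 induced libraries were above both NC libraries, while KD-Nap1l2 replicate 2 lay among the induced ones. The induction log2 fold change was 0.99 (SE 0.40, adjusted p = 0.177) in NC and 0.85 (SE 0.39, adjusted p = 0.178) in KD-Nap1l2, and neither passed the test. Without KD-Nap1l2 replicate 2 the latter became 1.57 with an adjusted p of 0.0400, the only alternative that called it, and without replicate 1 of that group it became 0.37 (adjusted p = 0.444). The shRNA comparisons gave 0.60 (SE 0.40) before and 0.47 (SE 0.38) after induction, with adjusted p of 0.559 and 0.834.

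*Il11* (gene 16156, chr7:4772373-4782907), whose product is IL-11, was the least abundant member. It had 26.6 and 24.3 normalized counts in NC, 26.4 and 27.1 in KD-Nap1l2, 18.2 and 9.59 in NC-7d, and 19.05 and 12.5 in KD-Nap1l2-7d, so that all 4 induced libraries were below all 4 uninduced ones. The log2 fold changes on induction were -0.88 (SE 0.43, adjusted p = 0.254) and -0.75 (SE 0.42, adjusted p = 0.261), which did not pass the test at these counts. *Clcf1* (gene 56708, chr19:4214238-4223505) encodes cardiotrophin-like cytokine factor 1, a ligand of the family. Its normalized counts overlapped in all 4 pairwise comparisons, from 316 in KD-Nap1l2-7d replicate 1 to 500 in NC-7d replicate 2, and its log2 fold changes lay between -0.29 and 0.23.

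*Il6st* (gene 16195, chr13:112464070-112506860), the gene of the shared receptor chain gp130, fell on induction between the KD-Nap1l2 groups. Normalized counts of 12363 and 10805 were found in NC, 10108 and 13753 in KD-Nap1l2, 9255 and 8410 in NC-7d, and 7232 and 7026 in KD-Nap1l2-7d. Every induced library was below every uninduced one, and KD-Nap1l2-7d was the lowest group. The fall from KD-Nap1l2 to KD-Nap1l2-7d was -0.74 (SE 0.18, adjusted p = 0.0304), a 1.67-fold lower level, and that from NC to NC-7d was -0.39 (SE 0.18, adjusted p = 0.218), which did not pass. The 2 values were not shown to differ, since their difference was -0.35 (SE 0.25, adjusted p = 0.810). The KD-Nap1l2 call was lost without NC replicate 1, NC replicate 2, KD-Nap1l2 replicate 2 or either KD-Nap1l2-7d library, with adjusted p between 0.0516 and 0.167, while the log2 fold change stayed between -0.95 and -0.50 over all libraries left out in turn.

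*Il11ra1* (gene 16157, chr4:41760443-41769473), the gene of the IL-11 receptor alpha chain, fell on induction in both cell populations. Its normalized counts were 4725 and 3348 in NC, 2704 and 2923 in KD-Nap1l2, 2368 and 1896 in NC-7d, and 1698 and 1676 in KD-Nap1l2-7d, and no 2 of the 4 groups overlapped. From NC to NC-7d it fell by 0.92 on the log2 scale (SE 0.19, adjusted p = 0.0255), and from KD-Nap1l2 to KD-Nap1l2-7d by 0.74 (SE 0.19, adjusted p = 0.0377). The first call was lost without NC replicate 1, NC-7d replicate 2 or either KD-Nap1l2-7d library, and the second without either library of KD-Nap1l2 or of KD-Nap1l2-7d. In the shRNA comparisons it stood lower by 0.52 (SE 0.19, adjusted p = 0.276) before and by 0.34 (SE 0.19, adjusted p = 0.715) after induction, without a call. The gene has near-identical copies, and its estimated count was fractional in all 8 libraries, so its level is uncertain to that extent. The copies *Il11ra2*, *Gm13305* and *Gm2002* averaged 27.0, 23.5 and 3.50 normalized counts. These values are estimates too, so they do not bound that uncertainty.

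*Osmr* and *Lifr*, which encode the alternative partners of gp130, lie close together on chromosome 15 (*Osmr*, gene 18414, chr15:6813568-6874968, and *Lifr*, gene 16880, chr15:7090610-7197489). *Osmr* had 1817 and 2385 normalized counts in NC, 2026 and 1556 in KD-Nap1l2, 4432 and 2196 in NC-7d, and 4577 and 3698 in KD-Nap1l2-7d. Both KD-Nap1l2-7d libraries were above all uninduced libraries, whereas NC-7d replicate 2 lay within the NC range. *Osmr* rose from KD-Nap1l2 to KD-Nap1l2-7d by 1.21 (SE 0.32, adjusted p = 0.0437), or 2.31-fold, and the corresponding value in the NC cells was 0.66 (SE 0.32, adjusted p = 0.252). The former call was kept only without NC-7d replicate 1 or NC-7d replicate 2 and lost without any other library, with log2 fold changes between 1.03 and 1.41. Without NC-7d replicate 2, the library that stood apart for *Fos*, the NC value became 1.08 with an adjusted p of 0.0412, and without NC-7d replicate 1 it became 0.065 with an adjusted p of 0.920. The difference between the 2 inductions was 0.55 (SE 0.45, adjusted p = 0.830).

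*Lifr* had 8068 and 8220 normalized counts in NC, 6416 and 3347 in KD-Nap1l2, 10748 and 5662 in NC-7d, and 5660 and 4852 in KD-Nap1l2-7d. Both shRNA groups lay below their controls, by 0.74 (SE 0.35, adjusted p = 0.411) before and by 0.64 (SE 0.35, adjusted p = 0.715) after induction, where the lower NC-7d library exceeded the upper KD-Nap1l2-7d library by less than 2 normalized counts. Neither passed the test, and replicates were far apart within KD-Nap1l2 and within NC-7d. On induction *Lifr* moved by 0.01 (SE 0.35) in NC and 0.11 (SE 0.35) in KD-Nap1l2, with adjusted p of 0.989 and 0.866.

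*Stat3* (gene 20848, chr11:100886806-100939594), the transcription factor that carries the gp130 signal to the nucleus, rose on induction in the NC cells. Its normalized counts were 2269 and 2532 in NC, 2901 and 3185 in KD-Nap1l2, 3812 and 3526 in NC-7d, and 3754 and 3761 in KD-Nap1l2-7d. The NC libraries were the lowest, KD-Nap1l2 was intermediate and the induced groups overlapped each other at the top. From NC to NC-7d it rose by 0.61 (SE 0.12, adjusted p = 0.0262), or 1.53-fold, and from KD-Nap1l2 to KD-Nap1l2-7d the value was 0.30 (SE 0.12, adjusted p = 0.140). Before induction KD-Nap1l2 was higher by 0.34 (SE 0.12, adjusted p = 0.282) and after it by 0.03 (SE 0.12, adjusted p = 0.974). The NC call was lost without NC replicate 1, NC replicate 2, NC-7d replicate 1 or either KD-Nap1l2-7d library, where adjusted p lay between 0.0660 and 0.206.

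*Socs3* (gene 12702, chr11:117966079-117970336) passed no test. Its normalized counts were 976 and 1001 in NC, 956 and 1426 in KD-Nap1l2, 1150 and 1146 in NC-7d, and 1039 and 1063 in KD-Nap1l2-7d. KD-Nap1l2 replicate 2, the library that stood apart for *Ier3*, was the highest of the 8, and the other 7 lay between 956 and 1150. Its log2 fold changes were 0.22 (SE 0.18) from NC to NC-7d and -0.18 (SE 0.18) from KD-Nap1l2 to KD-Nap1l2-7d, with adjusted p of 0.502 and 0.525. Without KD-Nap1l2 replicate 1 the latter became -0.44 with an adjusted p of 0.0440, and without KD-Nap1l2 replicate 2 it became 0.14 with an adjusted p of 0.511.

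**Figure D2:**
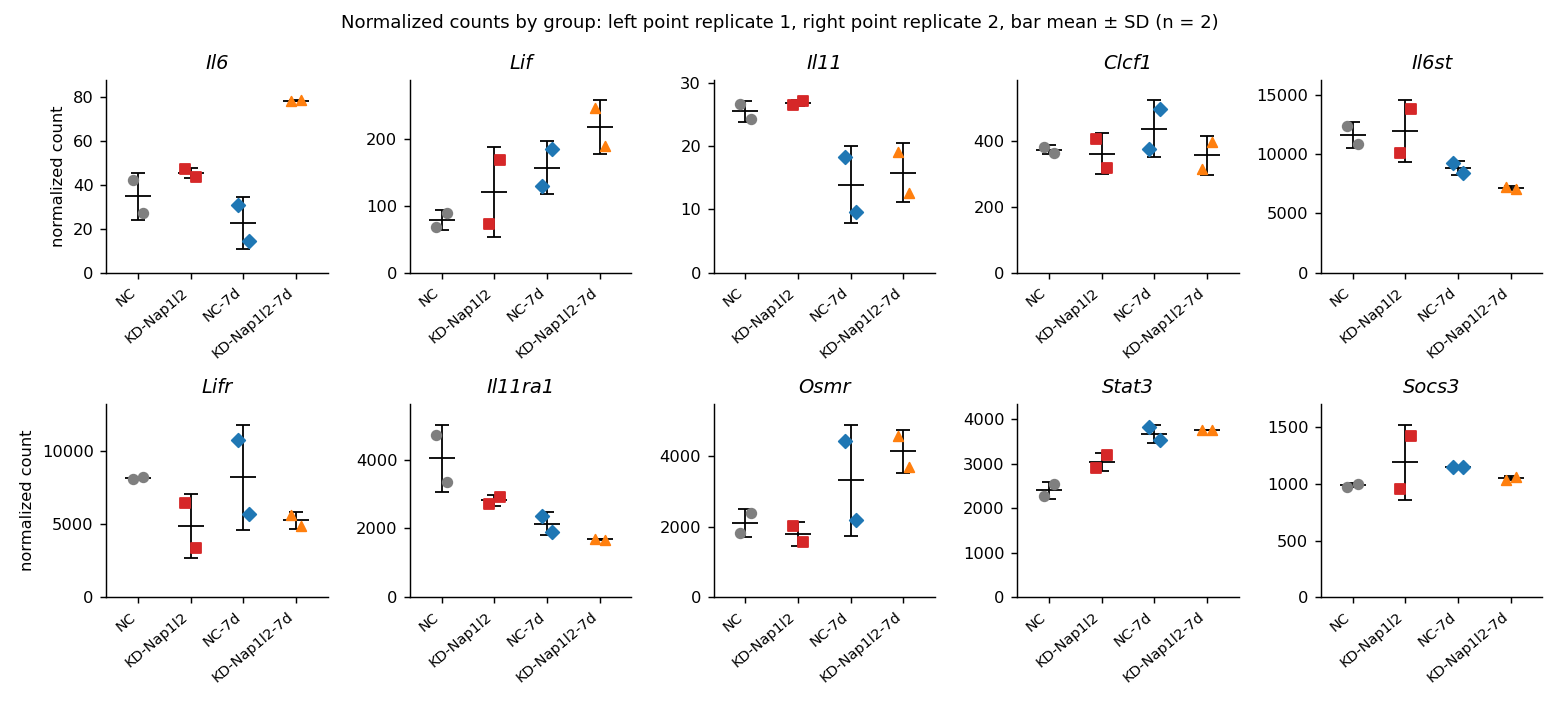
Normalized count of each of the 10 genes by group, with replicate 1 as the left and replicate 2 as the right point, and the bar as mean ± SD (n = 2), all axes starting at 0. *Il6* is highest in KD-Nap1l2-7d at 78.3, *Il11ra1* steps down from 4036 in NC to 1687 in KD-Nap1l2-7d, and *Lifr* and *Osmr* are widely spread between the NC-7d libraries.

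Counted over the 10 genes, edgeR called none in either shRNA comparison. Before induction 0 of 10 members were called, against 0.0817% of all genes tested, 2 (*Il11ra1* and *Stat3*) had an unadjusted p under 0.05, against 13.7% of all genes, and DESeq2 called 0, against 3.43%. After induction 0 of 10 were called, against 0.0% of all genes, 1 (*Il6*) had an unadjusted p under 0.05, against 7.85%, and DESeq2 called 0, against 0.609%. For the difference of the shRNA effects between day 7 and day 0 the counts were again 0 by edgeR (0.0% of all genes) and 0 by DESeq2 (0.72%), and 1 gene (*Il6*) had an unadjusted p under 0.05 (7.04%). The 2 libraries of one group were all above or all below the other 2 for 4 of the 10 before induction, against 43.2% of all genes, and for 6 of the 10 after it, against 42.0%.

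Induction called 2 of 10 members in NC (*Stat3* higher and *Il11ra1* lower), against 8.21% of all genes tested, and 3 of 10 in KD-Nap1l2 (*Osmr* higher, *Il6st* and *Il11ra1* lower), against 14.2%. DESeq2 called these same 2 and 3 genes, against 11.5% and 17.7% of all genes. An unadjusted p under 0.05 was found for 3 and 4 of the 10, against 24.5% and 31.4%. Groups did not overlap for 6 of the 10 in NC and 7 of the 10 in KD-Nap1l2, against 57.8% and 61.4%. The median log2 fold change of the members was 0.11 in NC and 0.042 in KD-Nap1l2, against -0.0035 and -0.0070 for all genes tested. The shRNA and induction comparisons share libraries, so their values for a gene are not independent of each other.

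**Figure D3:**
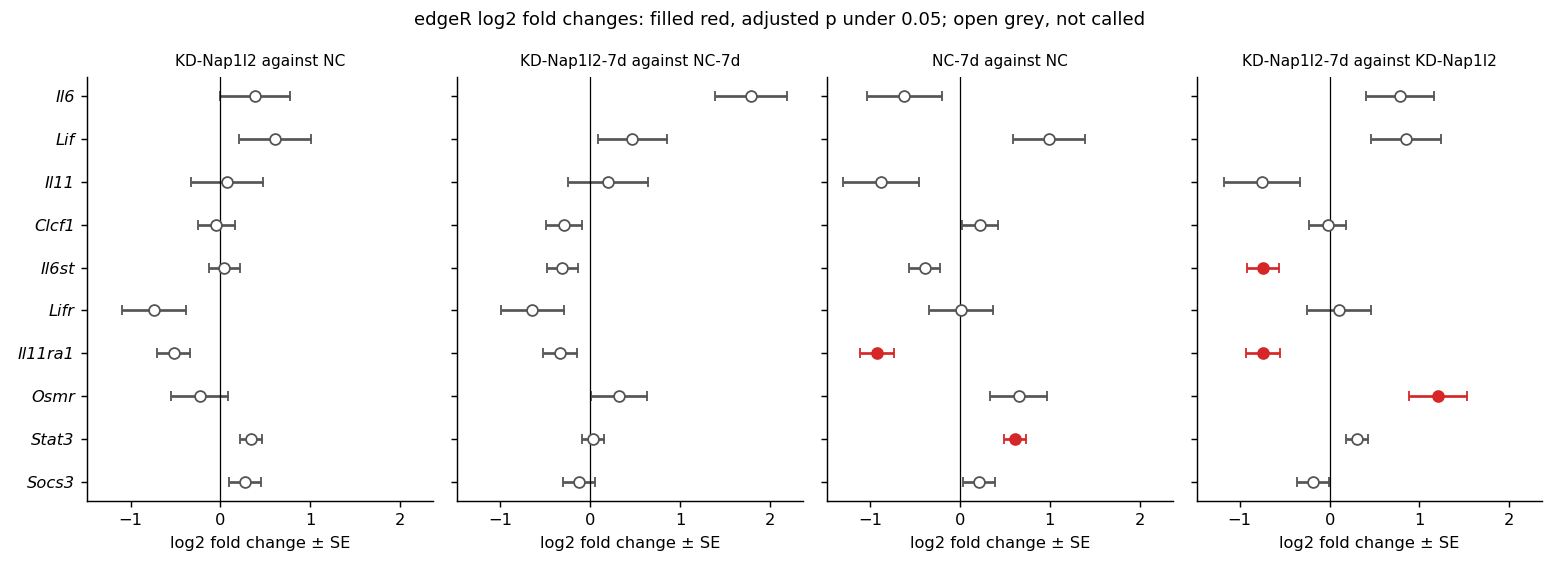
Log2 fold change ± SE of the 10 genes in the 4 pairwise comparisons (edgeR, 2 libraries per group). Filled red points passed an adjusted p of 0.05, namely *Il11ra1* and *Stat3* on induction in NC, and *Il6st*, *Il11ra1* and *Osmr* on induction in KD-Nap1l2, while *Il6* at 1.79 after induction did not.

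The transcript table assigned each gene's counts to RefSeq transcripts, and these shares are estimates with no test. *Il6* and *Il6st* had 1 transcript each. For *Stat3*, NM_213659.3, which encodes the 770-residue protein, carried 75.1% to 86.6% of the count, NM_213660.3, whose protein is 1 residue shorter at 769, carried 10.7% to 22.8%, and NM_011486.5, which encodes the 722-residue beta form without the C-terminal activation domain, carried at most 4.41%. The highest share of NM_213660.3 was in NC-7d replicate 2, and the other 7 libraries had between 10.7% and 15.4%. For *Lifr*, NM_013584.2 (1092 residues) carried 92.0% to 94.9%, and NM_001113386.1, which encodes a soluble form of 719 residues, carried 2.42% to 4.51%, with the highest 2 values of 4.51% and 4.02% in KD-Nap1l2-7d.

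*Osmr* counts were divided mainly between NM_011019.3 (31.5% to 54.2%) and the predicted XM_006519977.3 (37.5% to 61.2%), and NC-7d replicate 2 had both the lowest share of the former and the highest of the latter. For *Clcf1*, NM_019952.5 carried 44.6% and 42.2% in NC-7d and 72.2% and 60.3% in KD-Nap1l2-7d, and 53.2% and 60.9% in NC against 71.8% and 66.0% in KD-Nap1l2. All 3 *Clcf1* transcripts encode the same 225 residues. For *Il11ra1*, NM_010549.3 carried 12.8% and 17.6% in NC, 3.34% and 1.58% in KD-Nap1l2, 6.69% and 13.5% in NC-7d, and 0.0% and 4.10% in KD-Nap1l2-7d, and all 3 transcripts encode 432 residues. These *Clcf1* and *Il11ra1* transcripts were chosen after their values were seen, and their shares were not tested. For *Lif*, the 203-residue precursor NM_008501.2 had 0.0% and 100% in the 2 NC libraries, where the gene had 70.0 and 95.9 estimated counts.

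**Figure D4:**
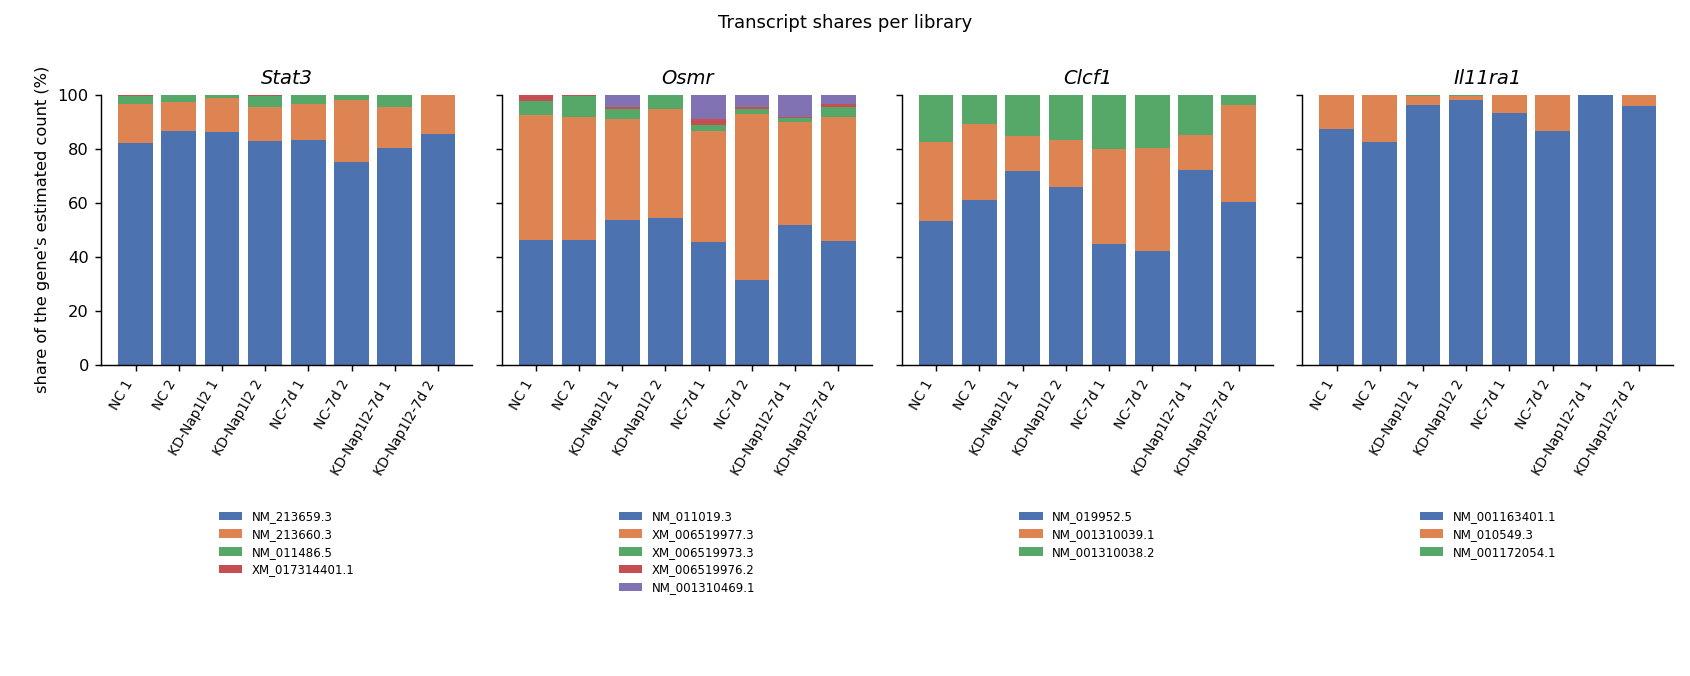
Share of each RefSeq transcript in the estimated count of *Stat3*, *Osmr*, *Clcf1* and *Il11ra1*, in percent, 1 stacked bar per library. NM_213659.3 carries at least 75.1% of *Stat3* in each library, and NM_001163401.1 carries at least 82.4% of *Il11ra1*.

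The wider pathway was read from 5 lists of 71 genes, of which 70 were in the table and 62 were tested. In the shRNA comparisons edgeR called 0 of the 62 before induction and 0 after it. Before induction 12 of them had an unadjusted p under 0.05, against 13.7% of all genes tested, and DESeq2 called 4, against 3.43%. After induction 15 of the 62 had an unadjusted p under 0.05, against 7.85%, and DESeq2 called 1, against 0.609%. Of these 15, 11 were among the 25 tested Stat3 target genes and 0 among the 16 tested negative regulators. None of the 62 differed in the shRNA effect between the times by edgeR. For that difference 5 had an unadjusted p under 0.05, against 7.04%, and DESeq2 called 1, against 0.72%. On induction edgeR called 11 of the 62 in NC (10 higher and 1 lower) and 12 in KD-Nap1l2 (11 higher and 1 lower). As a share of all genes tested, 4.83% were called higher and 3.38% lower in NC, and 6.84% and 7.36% in KD-Nap1l2.

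Among the other receptors, *Il6ra* rose on induction in both cell populations. It encodes the binding chain without which a cell does not respond to IL-6 directly, and had 105 and 111 normalized counts in NC, 88.1 and 125 in KD-Nap1l2, 351 and 422 in NC-7d, and 396 and 383 in KD-Nap1l2-7d. All 4 induced libraries were at least 351 and all 4 uninduced ones at most 125. The log2 fold change was 1.83 (SE 0.21, adjusted p = 0.00324) in NC and 1.87 (SE 0.21, adjusted p = 0.00224) in KD-Nap1l2, or 3.57-fold and 3.66-fold, and the shRNA comparison after induction gave 0.01 (SE 0.19, adjusted p = 0.995). The NC call was lost without NC replicate 1 (adjusted p = 0.0507). *Il31ra* gave -1.13 (SE 0.42, adjusted p = 0.112) in KD-Nap1l2, at 22 to 83 normalized counts per library.

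Of the other ligand genes, *Ctf1*, which encodes cardiotrophin 1, gave -0.66 (SE 0.24, adjusted p = 0.136) on induction in NC. *Osm*, the ligand of OSMR, had no row in the table.

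Among 15 tested kinases and adaptors, 1 passed. *Gab2*, a docking adaptor, rose by 0.89 (SE 0.14, adjusted p = 0.0103) in NC and by 1.38 (SE 0.14, adjusted p = 0.00167) in KD-Nap1l2. The NC call was lost without NC replicate 1 (adjusted p = 0.107). *Tyk2* gave 0.42 (SE 0.15) in NC with an adjusted p of 0.132, and *Gab1* gave -0.50 (SE 0.13) between the induced groups with an adjusted p of 0.495. *Stat2*, a transcription factor of interferon signalling, was lower by 1.33 (SE 0.51, adjusted p = 0.306) in KD-Nap1l2 than in NC. It had 5411.5 and 8448.9 normalized counts in NC, 3898 and 1602 in KD-Nap1l2, 9297 and 3729 in NC-7d, and 6252.6 and 7381.8 in KD-Nap1l2-7d.

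Among 16 tested negative regulators, *Socs1*, a Janus kinase inhibitor, fell by 1.20 (SE 0.23, adjusted p = 0.0201) from NC to NC-7d. It had normalized counts of 414 and 432 in NC, 202 and 203 in KD-Nap1l2, 217 and 151 in NC-7d, and 154 and 214 in KD-Nap1l2-7d, so the NC libraries alone were high. The call was lost without either NC library or NC-7d replicate 2 (adjusted p between 0.0625 and 0.121). KD-Nap1l2 stood below NC by 1.06 (SE 0.23), with an adjusted p of 0.116 by edgeR and 0.00603 by DESeq2, in a range of 0.00603 to 0.430 over all alternatives. The values of *Ptpn6* (-0.68, SE 0.32) in the same comparison, of *Cish* (-0.44, SE 0.23) and *Socs2* (-0.29, SE 0.16) between the induced groups, and of *Socs6* (0.41, SE 0.12) and *Socs5* (-0.41, SE 0.15) on induction in KD-Nap1l2 did not pass. *Adam10*, a protease that sheds the IL-6 receptor, was counted in this list, although shedding is not in itself inhibition. It was the most abundant gene of the list at 53.0 FPKM and passed no test.

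The list of Stat3 target genes held most of the calls. On induction 8 of 25 tested were called higher in NC and 9 of 25 in KD-Nap1l2, with none lower. Of all genes tested, 4.83% were called higher in NC and 6.84% in KD-Nap1l2. The list median was 0.51 and 0.61, against -0.0035 and -0.0070 for all genes. Since the list was chosen with earlier results of these data known, these comparisons describe it and do not test Stat3 targets as a set. The acute-phase genes moved furthest, and these are also known targets of NF-kB and C/EBP factors. Which regulators lay behind the rises was not tested, and both induced groups received dexamethasone. *Lcn2*, which encodes the iron-siderophore binding protein lipocalin 2 and was the most abundant of the list at 1072 FPKM, had 2718 and 3120 normalized counts in NC, 1888 and 1212 in KD-Nap1l2, 20644 and 18620 in NC-7d, and 46624 and 35217 in KD-Nap1l2-7d. It rose by 2.75 (SE 0.25, adjusted p = 0.00165) in NC and by 4.72 (SE 0.27, adjusted p = 0.000199) in KD-Nap1l2. Its shRNA comparison gave -0.91 (SE 0.24, adjusted p = 0.167) before and 1.06 (SE 0.24, adjusted p = 0.443) after induction, and the difference of 1.97 (SE 0.33) had an adjusted p of 0.343 by edgeR and 4.81e-06 by DESeq2, in a range of 4.81e-06 to 1.0 over all alternatives.

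*Lbp*, the lipopolysaccharide binding protein, rose by 3.79 (SE 0.24, adjusted p = 0.000432) and 4.43 (SE 0.25, adjusted p = 0.000172) in NC and KD-Nap1l2. *Saa3*, an acute-phase apolipoprotein, rose from 6.90 and 13.1 to 244 and 173 normalized counts in NC, and from 21.5 and 4.16 to 1053 and 447 in KD-Nap1l2. The remaining called genes of the list rose less and in both cell populations. *Cebpb*, a transcription factor of the acute-phase response, rose by 1.36 and 1.77, the survival gene *Bcl2l1* by 1.3831 and 1.5036, the kinase gene *Pim3* by 1.58 and 1.18, the repressor *Bcl6* by 1.55 and 1.10, and the receptor gene *Il4ra* by 1.02 and 0.92, with adjusted p between 0.000591 and 0.0362. *Myc* rose by 0.61 (SE 0.17, adjusted p = 0.0455) in KD-Nap1l2, with 0.35 (SE 0.17, adjusted p = 0.241) in NC, and the difference of 0.26 had an adjusted p of 0.847. Its call was lost without any one of the NC, KD-Nap1l2 or KD-Nap1l2-7d libraries. In NC, the *Il4ra* call was lost without either NC library, NC-7d replicate 1 or either KD-Nap1l2-7d library (adjusted p between 0.0620 and 0.195), and the calls of *Pim3* (0.108 and 0.125) and *Saa3* (0.0510 and 0.111) without either NC library. In KD-Nap1l2, the *Il4ra* and *Pim3* calls were lost without either NC library, KD-Nap1l2 replicate 1 or either KD-Nap1l2-7d library (adjusted p between 0.0524 and 0.162 for *Il4ra*, and between 0.0619 and 0.165 for *Pim3*), and the *Bcl6* call without KD-Nap1l2-7d replicate 1 (0.0801). *Fos* gave 2.65 (SE 1.123, adjusted p = 0.195) in NC, carried by NC-7d replicate 2, and *Fosl2* (1.01, SE 0.37) and *Ier3* (1.72, SE 0.86) gave uncalled values in KD-Nap1l2 against NC, where KD-Nap1l2 replicate 2 was the highest library.

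**Figure D5:**
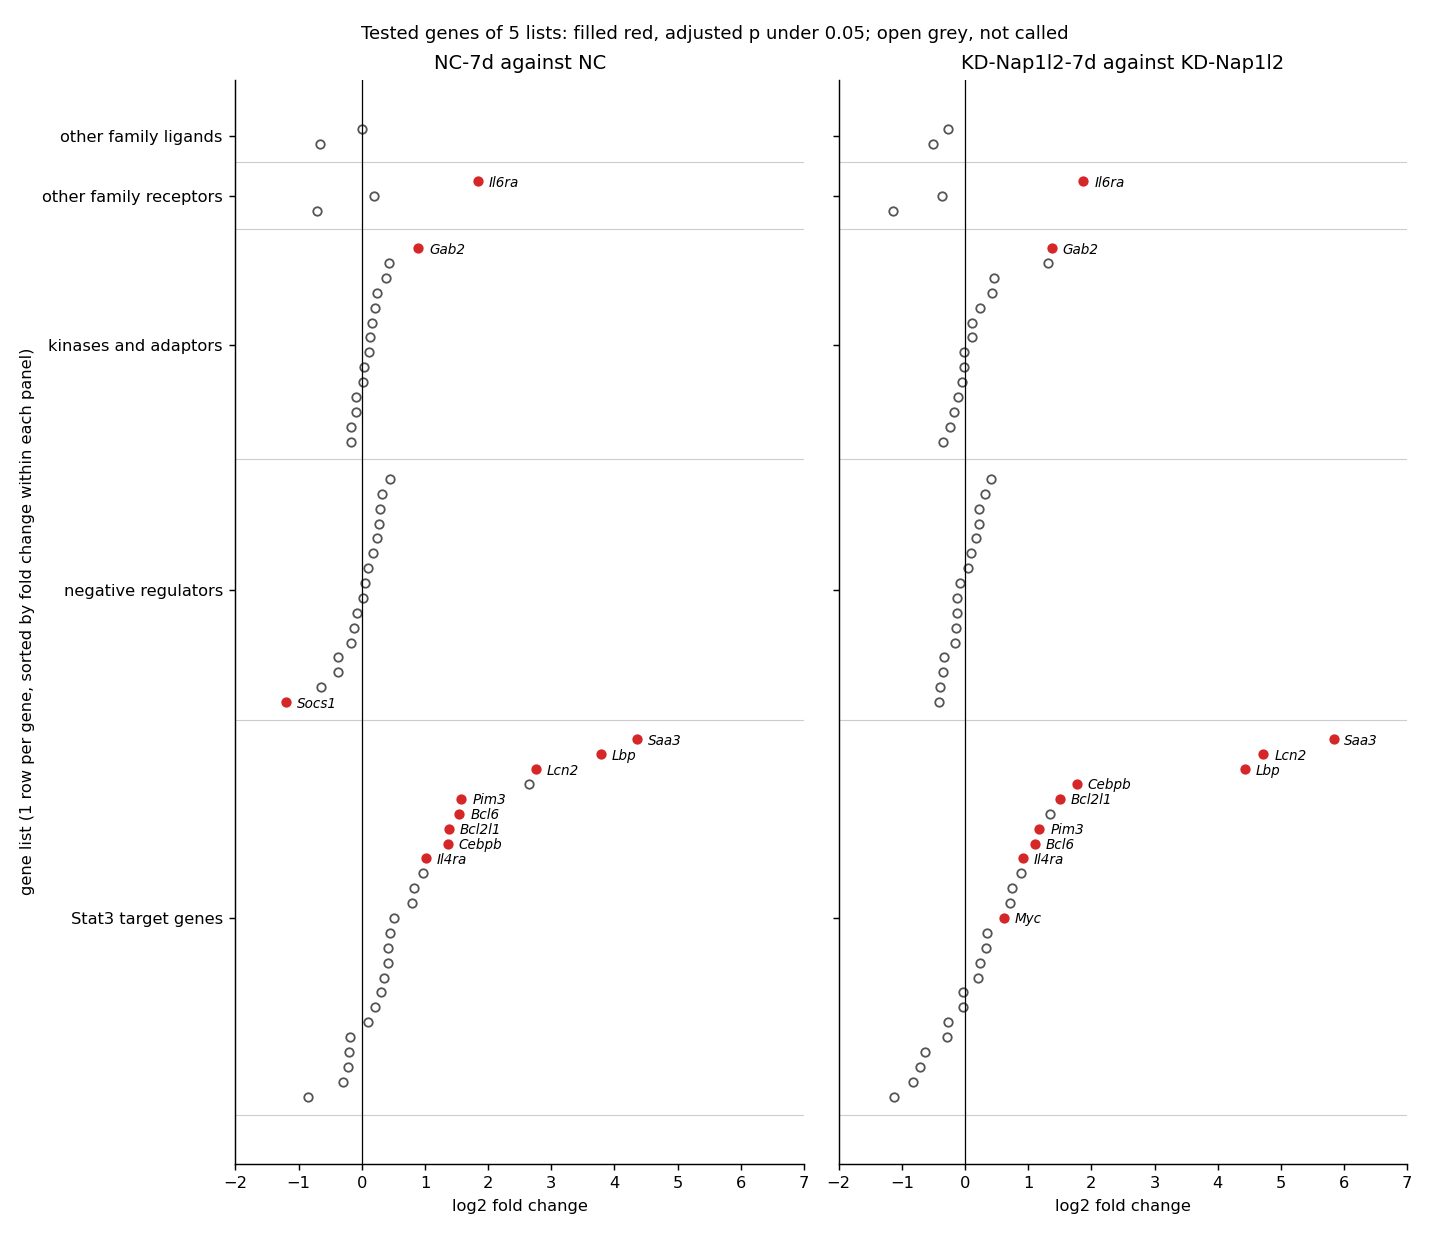
Log2 fold change on induction of tested genes of the 5 lists in NC (left) and KD-Nap1l2 (right), 1 row per gene, with called genes filled and named. *Il6ra* and *Gab2* rise in both panels, 8 and 9 Stat3 target genes are called higher, and *Socs1* is called lower in the NC panel.

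The genes whose levels followed a member most closely over the 8 libraries were found by Pearson correlation of log2 CPM, as a description without a test, since the libraries of a group share its treatment. They were *Chpf2*, *Ndfip2* and *Ubxn1* for *Il6* (r = 0.962, 0.959 and 0.938), *Fam43a*, *Nfix* and *Ppp3cb* for *Il6st* (0.987, 0.979 and 0.977), *Ybx3*, *Insr* and *Baz2a* for *Stat3* (0.995, 0.992 and 0.991), and *Col6a3*, *Npepps* and *Faap100* for *Socs3* (0.976, 0.976 and 0.972).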

How the data were processed

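RNA of 8 libraries was prepared by the protocols of a sequencing provider. The authors deposited estimated counts per gene and per transcript, and the submitters' processing notes name BWA, Bowtie2, RSEM and the build GRCm38.p6, without roles or versions. Beside them the authors deposited an expression column, here read as FPKM from its values because the header names no unit. The deposited log2 ratio and p-value columns of the authors' own comparisons were not used. Counts were rounded to whole numbers. edgeR 4.0.16 (R 4.3.3; TMM, filterByExpr, glmQLFit and glmQLFTest) was fitted to all 8 libraries by group, with Benjamini-Hochberg adjustment over 13470 genes, and an adjusted p under 0.05 was a call. The SE is the log2 fold change divided by the root of F. DESeq2 1.42.0 and limma 3.58.1 on log2(FPKM + 1) or log2(FPKM + 0.1) were alternatives. The script was tested on simulated data.

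Nothing states that replicates were separate cultures, so p-values measure the spread between these libraries. With 2 against 2 libraries an exact permutation test cannot go below 0.333, and none was run. Libraries held 17420237 to 19427284 counts, and intervals cover counting error only. Members, lists, motifs and tests were chosen with earlier results of these data known. Named pathway genes were those called, up to 2 per list and comparison with the largest change among genes with at least 50 mean normalized counts and groups that did not overlap, and the most abundant of each list. *Fos*, *Il11ra2*, *Gm13305* and *Gm2002* were named after their values were seen. Of the genes this rule selects, 2 are counted in the lists but not reported here. Promoters and transcript identifiers are from RefSeq.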

Additional observations from a re-analysis of the deposited data

How the results depend on the processing

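In NC against NC-7d the 2 member calls became 0 when only the libraries compared were fitted, and in KD-Nap1l2 against KD-Nap1l2-7d the 3 became 1 with limma on log2(FPKM + 1) without a filter. The 3 calls lost among only the libraries compared had adjusted p of 0.0680 (*Il11ra1* in NC), 0.0575 (*Stat3* in NC) and 0.0586 (*Il6st* in KD-Nap1l2). Leaving out 1 library at a time gave 0 to 2 and 0 to 3 member calls. Over all genes, KD-Nap1l2 against NC gave 11 calls, and 462 with DESeq2, 160 without a filter, 4 with at least 10 counts in every library, 0 from only the libraries compared, 4 with the replicate block, 24 with limma on log2(FPKM + 1), and 0 to 562 without 1 library. KD-Nap1l2-7d against NC-7d gave 0, and 82 with DESeq2, 1 with limma without a filter, and 0 to 1 without 1 library. Induction gave 1106 calls in NC and 1912 in KD-Nap1l2, 651 and 1214 with limma without a filter, and 122 to 1490 and 305 to 2218 without 1 library. The difference of the shRNA effects gave 0, and 97 with DESeq2, 1 without a filter, and 0 to 19 without 1 library. Other pathway genes gave 4 (before induction), 1 (after it) and 1 (difference) calls with DESeq2 in place of 0, and 0 to 3 (before induction), 5 to 14 (induction in NC) and 7 to 14 (induction in KD-Nap1l2) without 1 library. A left-out library means fewer samples, and other causes were not tested.

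Called members kept their direction under every alternative run. The directions that turned belonged to values without a call. For *Lif* the difference of the shRNA effects, -0.14, became 0.0798 with limma at a pseudocount of 1, 0.054 at 0.1, and 0.0798 at 1 without a filter. For *Lifr* induction in NC, 0.01, became -0.0026 with at least 10 counts in every library, -0.073 with the replicate block, and -0.043, -0.045 and -0.043 with limma. For *Il11* before induction 0.07 became -0.048 with limma without a filter. Without 1 library, log2 fold changes before induction ran from -0.20 to 0.25 for *Il6st*, -0.11 to 1.09 for *Lif*, -0.23 to 0.12 for *Clcf1* and -0.049 to 0.53 for *Socs3*. After induction they ran from -0.20 to 0.71 for *Il11*, -0.098 to 0.91 for *Osmr* and -0.020 to 0.091 for *Stat3*. On induction they ran from -0.52 to 0.40 for *Lifr* in NC, and in KD-Nap1l2 from -0.29 to 0.65 for *Lifr*, -0.21 to 0.16 for *Clcf1* and -0.44 to 0.14 for *Socs3*. The difference ran from -0.62 to 0.58 for *Lif*, -0.30 to 0.64 for *Lifr*, -0.27 to 0.64 for *Il11* and -0.086 to 0.41 for *Il11ra1*.

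The labels give groups the same replicate numbers, but deviations of same-numbered libraries correlated between -0.0612 and 0.104, so the numbers were not taken as pairs. With the replicate block the member calls stayed at 2 and 3 on induction and 0 elsewhere, and the *Myc* call in KD-Nap1l2 was lost (adjusted p = 0.0643), as it also was with at least 10 counts in every library (0.0516), with only the libraries compared (0.0612) and with the 3 limma fits (0.0607, 0.0620 and 0.101). Levels as TMM-normalized CPM in place of FPKM moved none of the 40 ratios of group means by more than the spread between replicates. Depth limits *Il6*, *Lif* and *Il11* most, at 10.3 to 246 counts per library.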

Other observations

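The ratio of *Osmr* to *Lifr* FPKM, chosen after the values were seen and not tested, was 0.412 and 0.512 in NC, 0.561 and 0.812 in KD-Nap1l2, 0.728 and 0.707 in NC-7d, and 1.38 and 1.31 in KD-Nap1l2-7d. *Osmr* was thus above *Lifr* in both libraries of the last group and below it in the other 6. The NC-7d libraries, which differed widely in each gene alone, had nearly the same ratio.

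The ratio of *Il6ra* to *Il6st* FPKM, also chosen after the values were seen, was 0.0138 to 0.0167 in the 4 uninduced libraries and 0.0616 to 0.0889 in the 4 induced ones.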
